A study of Mus musculus with 12 samples.

Results

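The genes of glycolysis and of the response to low oxygen were followed through the dermal papilla (DP), the cluster of mesenchymal cells at the base of the hair follicle that instructs the hair-forming epithelium above it. A list of 35 genes was matched by symbol to the 2 deposited tables, one for each age. Of the 35, 34 were listed in both tables, among 14986 genes that the tables shared. The exception was Aldoc, an aldolase isoenzyme, which was listed at P16 only, with between 1 and 6 reads in each of the 6 libraries. The members comprised 3 genes of glucose entry and phosphorylation, 6 of upper and 6 of lower glycolysis, 7 of lactate and pyruvate metabolism, 3 of fructose-2,6-bisphosphate metabolism, 4 of oxygen sensing and 5 hypoxia-inducible targets.

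Glycolysis splits glucose into pyruvate, which is either reduced to lactate or passed to the mitochondria through pyruvate dehydrogenase. When oxygen is sufficient, prolyl hydroxylases of the EGLN family mark the alpha subunits of hypoxia-inducible factor (HIF) for destruction. When oxygen falls, HIF accumulates and raises transcription of most glycolytic enzymes, of lactate dehydrogenase A, of pyruvate dehydrogenase kinases and of its own inhibitor Egln3.

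The study compared dMF1/2 mice, in which Fgfr1 and Fgfr2 were both deleted in the DP, with controls at postnatal day 14 (P14) and postnatal day 16 (P16), late in the first growth phase of the hair. The comparison bears on what loss of these 2 fibroblast growth factor receptors changes in DP cells as growth draws to its end. Each of the 4 groups held 3 libraries, giving 12 in all, and each library came from DP cells sorted for yellow fluorescent protein (YFP). Cre recombinase expressed from the Corin locus, which is active in the DP after birth, removed the floxed Fgfr1 and Fgfr2 exons and switched on a YFP reporter at the ROSA26 locus. The labels call the controls wild type. By the study's methods they carried either Cre with 1 floxed and 1 normal copy of each receptor gene, or floxed copies without Cre, and since the reporter needs Cre, sorted control cells of the first kind lacked 1 copy of each receptor. Nothing in the labels ties the libraries to litters or sorting days, so p-values measure the spread between these 12 samples.

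Libraries held between 19302358 and 29860750 reads assigned to listed genes. At P14 the libraries numbered 1 of both genotypes stood apart, with 7.06% and 9.15% of reads from Col1a1 against 16.4% to 17.1% in the other P14 libraries. Read counts over whole genes gave Fgfr1 at −0.40 (SE 0.13, limma adjusted p = 0.501) in dMF1/2 against control on the log2 scale at P14 and −0.50 (SE 0.16, adjusted p = 0.130) at P16, and Fgfr2 at −0.11 and −0.01. These counts include exons outside the deleted parts and do not check the deletion. Of 14 DP markers, all were listed and none was at 0 in all 12 libraries, and their summed level ran from 40928 to 111302 normalized reads. In sorted bulk cells, fewer cells of a type and less RNA per cell cannot be told apart.

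Levels are given as normalized reads, the reads of a gene scaled to the depth of its library over all 12 libraries. Levels of different genes are compared only after division by exon length, the union of the exons of all annotated transcripts. By this union Gapdh has 4133 bases and Aldoa 2911, against 1949 and 2421 distinct 61-base windows in their protein-coding transcripts. The order of members therefore depends on the length chosen. Per kilobase of this exon union, averaged over the 12 libraries, Aldoa (fructose-bisphosphate aldolase A) was the highest member, at 1259 normalized reads per kilobase. Pkm (pyruvate kinase) followed at 1182, Pgam1 (phosphoglycerate mutase) at 1081, Ldha (lactate dehydrogenase A) at 855 and Gapdh at 811. The lowest were Pdk1 (pyruvate dehydrogenase kinase 1) at 38.7, Pfkfb2 at 19.1 and Ankrd37 at 7.85. The enzymes from sugar entry to pyruvate spanned from Aldoa down to Eno2 (the neuronal enolase) at 44.6 reads per kilobase, and within enzyme families Eno1 lay above Eno2 in every library, at 240 against 44.6 reads per kilobase. Both HIF alpha subunits were present at like levels per kilobase, Hif1a at 396 and Epas1 (HIF-2 alpha) at 367. The EGLN hydroxylases differed more, with Egln1 at 411 and Egln3 at 46.7 reads per kilobase. Reads of several abundant members could be shared with near-identical copies elsewhere in the genome. In GENCODE transcripts, windows as long as the 61-base reads matched another gene for 67.8% of Pgk1, 57.0% of Gapdh, 52.0% of Bnip3, 47.2% of Eno1, 41.1% of Pgam1 and 22.4% of Bnip3l, and for none of Egln3, Pfkfb3, Hk2, Pdk1, Pdk2 and Epas1, so levels of the former are uncertain.

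**Figure D1:**
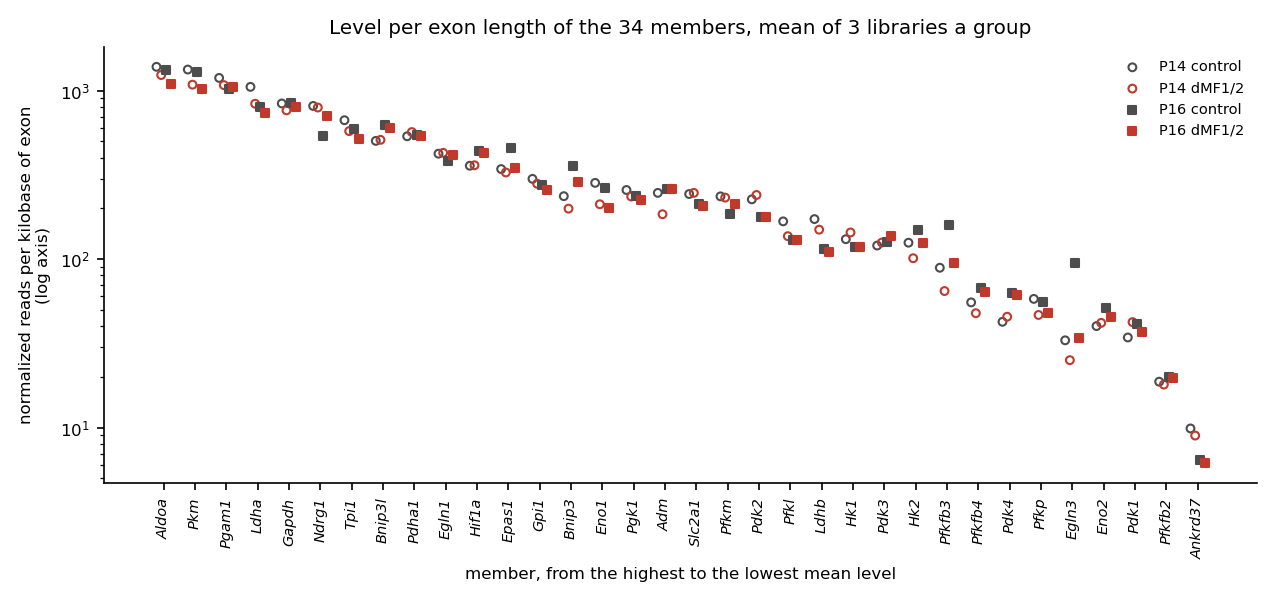
Normalized reads per kilobase of exon on a log axis for the 34 members in both tables, ordered from the highest (Aldoa) to the lowest (Ankrd37) mean. Each point is the mean of 3 libraries of a group, with open symbols for P14, filled symbols for P16, grey for control and red for dMF1/2; Egln3 in P16 control, at 94.4, lies apart from its other groups, at 25.1 to 34.2.

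In dMF1/2 against control, no member passed the threshold (limma with trend on log2(normalized reads + 1), Benjamini-Hochberg adjusted p below 0.05 over all genes tested) at P14, where 0.0525% of the 13334 genes tested did. At P14, 4 of the 34 members had an unadjusted p below 0.05, against 7.32% of all genes. DESeq2 and edgeR called 0 members at P14 as well, and so did limma blocked on the replicate number, which called 1.68% of all genes. The members nonetheless lay mostly below 0 at P14. The log2 difference was negative in 23 of 34 members, with a median of −0.10, against 48.7% of all genes and a median of 0.00. Among the 14 listed enzymes from sugar entry to pyruvate, counting phosphofructokinases, aldolase and enolases, 12 were negative, with a median of −0.15.

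At P16, 2 of 33 members tested passed the threshold, both lower in dMF1/2, against 4.32% of 13457 genes tested in either direction, 2.18% higher and 2.14% lower. The 2 were Egln3 and Eno1. The log2 difference was negative in 25 of 33 members, with a median of −0.08, against 50.8% of all genes and a median of 0.00. Ankrd37 was not tested at P16 because its mean of 9.83 normalized reads fell under the filter of 10. When limma was blocked on the replicate number, 3 of 33 members passed, against 10.4% of all genes, the third being Pfkfb3. Every library of dMF1/2 lay below every control library in 5 of 34 members at P14 (Adm, Eno1, Gapdh, Pfkp and Pkm), against 6.32% of all genes, and in 7 of 33 at P16 (Aldoa, Bnip3l, Egln3, Eno1, Pfkp, Pkm and Tpi1), against 11.6%. Every dMF1/2 library lay above every control library in no member at P14, against 6.33% of all genes, and in 2 members at P16 (Pdk3 and Pfkm), against 12.9%. Eno1, Pfkp and Pkm were the members whose groups were separated at both ages.

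**Figure D2:**
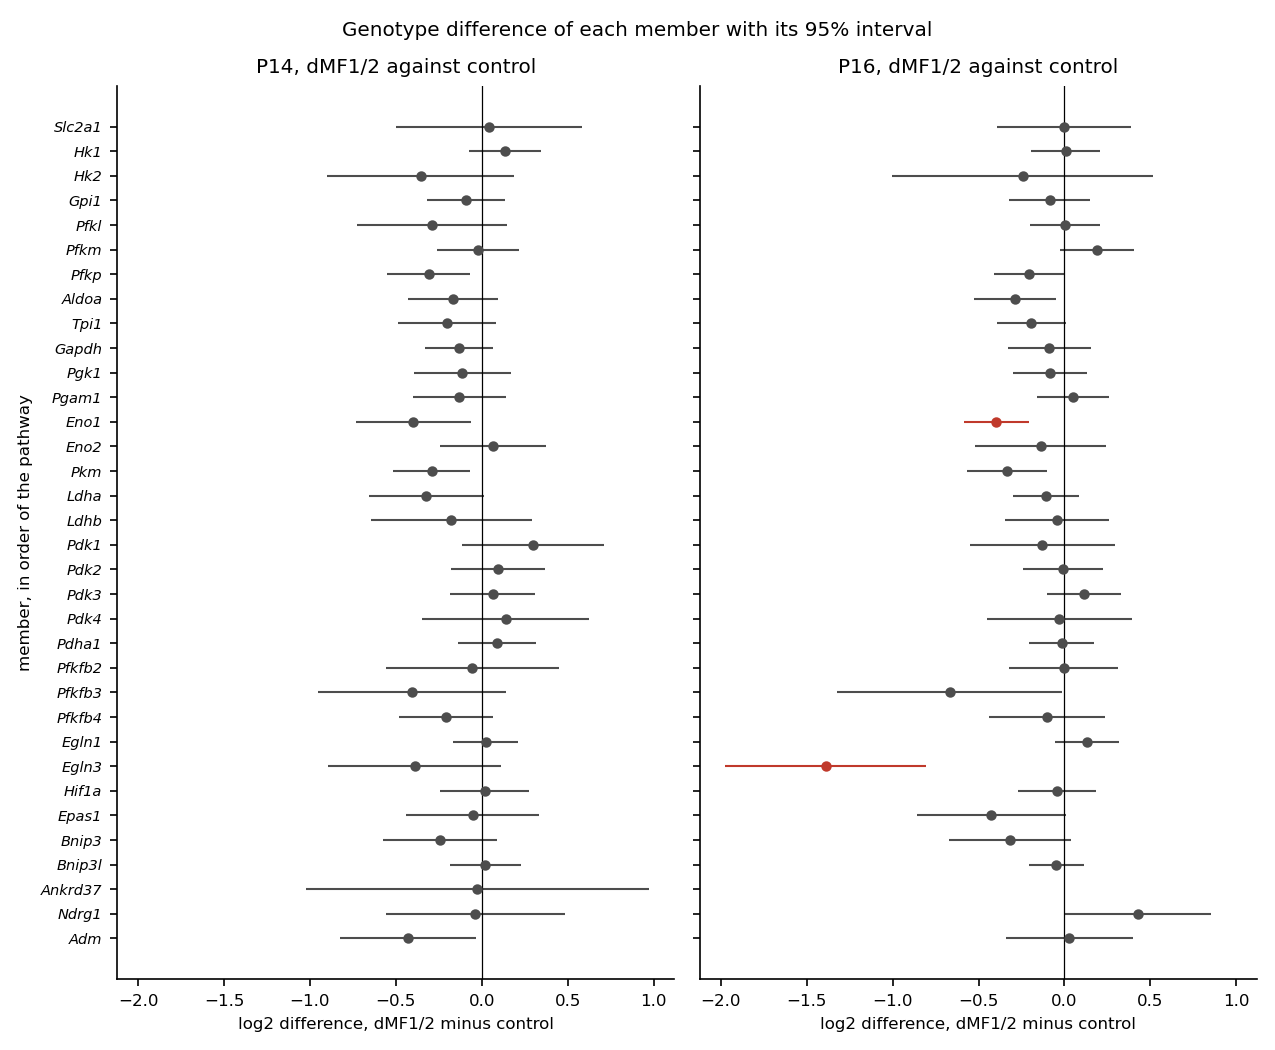
Log2 difference of dMF1/2 minus control for each member, at P14 on the left and P16 on the right, with the 95% interval from limma as horizontal bars; members run down the axis from glucose entry to hypoxia-inducible targets. Red marks an adjusted p below 0.05, reached at P16 by Egln3 at −1.39 and Eno1 at −0.40 and by no member at P14.

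From P14 to P16 in control mice, 6 of 34 members passed the threshold, against 14.5% of 13415 genes tested. Egln3, Bnip3 and Bnip3l rose, against 6.26% of all genes, and Pfkm, Ldha and Ldhb fell, against 8.28%. In dMF1/2 mice over the same days 1 of 34 passed, Pdk2, which fell, against 5.8% of all genes in either direction and 3.97% falling. The control change and the genotype difference at P16 share the P16 control libraries, so they are set side by side and not counted as separate evidence. No member passed the test of the difference between the 2 changes (the interaction of genotype and day), and neither did any gene by limma, 0.0% of 13415. Unadjusted limma p was below 0.05 for 648 genes (4.83%), including 1 member, Egln3. Over all genes DESeq2 called 6 and edgeR 0, none of them members. A change past the threshold in control and not in dMF1/2 is therefore not shown to differ between the genotypes. The share of members whose libraries did not overlap between the days was near that of all genes. In control all 3 P16 libraries lay above all 3 P14 libraries for 6 of 34 members, against 17.5% of all genes, and below them for 7, against 18.4%. In dMF1/2 they lay above for 5 members, against 13.2% of all genes, and below for 5, against 14.4%. Summed levels of 4 marker lists did not overlap between the days in 1 or both genotypes. In controls the DP markers went from 75250 to 106582 normalized reads at P14 to 40928 to 59323 at P16, and 7 of the 14 fell past the threshold, against 8.28% of all genes. The melanocyte markers went from 544 to 701 up to 897 to 984 in control and from 616 to 658 up to 789 to 887 in dMF1/2. The 3 listed erythroid markers went from 2.96 to 11.3 up to 33.6 to 185 in control, and the genes induced by tissue dissociation from 318848 to 340694 up to 350114 to 375059 in dMF1/2. The part of these lists in the changes of the members with age was not tested.

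Glucose entry and phosphorylation are served by Slc2a1, the glucose transporter GLUT1, and by the hexokinases Hk1 and Hk2. None of the 3 passed the threshold between genotypes or between days. Slc2a1 ranged from 600.2 to 996 normalized reads over the 12 libraries, and its log2 genotype difference was 0.04 (95% interval −0.50 to 0.59) at P14 and −0.00 (−0.39 to 0.39) at P16. Hk2, the inducible hexokinase, varied widely within groups, with 938, 537 and 1197 normalized reads in the P16 controls and 631, 531 and 1068 in P16 dMF1/2. The genotypes overlapped in Hk2 at P16, with a log2 difference of −0.24 (SE 0.33, limma adjusted p = 0.769, or SE 0.11 and adjusted p = 0.234 with the replicate block). Within each P16 replicate number the dMF1/2 library was the lower, narrowly so in replicate 2. At P14 the difference was −0.36 (SE 0.23, limma adjusted p = 0.871), and in replicate 1 dMF1/2 was the higher, at 785 against 705. Hk1 was tighter, at 914 to 1046 in P16 controls and 957 to 1021 in P16 dMF1/2. All P16 libraries lay below all P14 libraries for Hk1 in control and in dMF1/2, against 18.4% and 14.4% of all genes. Its log2 change was −0.16 (limma adjusted p = 0.196) in control and −0.29 (0.0613, or 0.0366 with the replicate block) in dMF1/2.

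Upper glycolysis runs from glucose-6-phosphate to the triose phosphates, through Gpi1, the phosphofructokinases Pfkl, Pfkm and Pfkp, Aldoa and Tpi1. The log2 genotype difference was negative in 6 of the 6 listed genes at P14, with a median of −0.19, against 48.7% of all genes, and in 4 of 6 at P16, with a median of −0.14, against 50.8%. Pfkp, the platelet type phosphofructokinase, had 773, 704 and 856 normalized reads in the P14 controls and 596, 617 and 659 in P14 dMF1/2. At P16 it had 692, 732 and 816 in control and 653, 642 and 636 in dMF1/2. All dMF1/2 libraries thus lay under all control libraries at both ages, with log2 differences of −0.31 (SE 0.10, limma adjusted p = 0.518) at P14 and −0.20 (SE 0.09, adjusted p = 0.268) at P16. Of the read-length windows of Pfkp, 15.1% matched the overlapping gene Pitrm1.

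Aldoa, which cleaves fructose-1,6-bisphosphate, stood at 3815, 3999 and 3804 normalized reads in P16 controls and 3098, 3616 and 2809 in P16 dMF1/2. The P16 groups did not overlap, although dMF1/2 replicate 2 came close to the controls, and the log2 difference was −0.29 (SE 0.10, limma adjusted p = 0.179, or 0.0599 with the replicate block). At P14, dMF1/2 replicate 2, at 4005, lay within the control range of 3895 to 4098. Tpi1, triose phosphate isomerase, showed the same order at P16, with 1560 to 1665 in control and 1284 to 1507 in dMF1/2 (log2 difference −0.19, adjusted p = 0.279).

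Pfkm, the muscle type phosphofructokinase, went the other way at P16, with 656, 592 and 618 normalized reads in control and 663, 682 and 776 in dMF1/2. The groups were separated by a narrow margin, with a log2 difference of 0.19 (SE 0.09, limma adjusted p = 0.337). Pfkm fell in controls from 860, 763 and 736 at P14 to those P16 values, a log2 change of −0.34 (SE 0.10, limma adjusted p = 0.0372), and the control libraries of the 2 days did not overlap. The dMF1/2 libraries, at 841, 761 and 718 at P14, overlapped with P16, with a log2 change of −0.13 (SE 0.10, adjusted p = 0.461). The fall in controls was not called when any 1 of 5 of the 6 control libraries was left out; without P14 control replicate 1 it was −0.27 (adjusted p = 0.136), and without P14 control replicate 3 it held at −0.38 (adjusted p = 0.0391).

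Lower glycolysis recovers energy as ATP and ends at pyruvate, through Gapdh, Pgk1, Pgam1, the enolases Eno1 and Eno2, and Pkm. Eno1, the enolase of most tissues, had 1389, 1385 and 1515 normalized reads in the P16 controls and 1039, 1151 and 1051 in P16 dMF1/2. The lowest control lay well above the highest dMF1/2 library, and Eno1 was lower in dMF1/2 by a log2 difference of −0.40 (SE 0.08, limma adjusted p = 0.0375), or 1.32-fold. At P14 the controls had 1846, 1255 and 1468 normalized reads and the dMF1/2 libraries 1187, 1100 and 1125. The P14 groups did not overlap either, and the log2 difference was again −0.40 but with a larger error (SE 0.14, limma adjusted p = 0.576), P14 control replicate 1 being the highest of the 12 libraries. Eno1 did not pass the threshold at P16 when any 1 of the 6 P16 libraries was left out (adjusted p from 0.0544 to 0.134) nor in a joint fit of all 12 libraries (0.0836). Most of its shared read-length windows, 46.1% of all, matched the retrogene Eno1b, which was counted separately and had a log2 difference of −0.48 at P16 (SE 0.12, limma adjusted p = 0.0639, or 0.0259 with the replicate block).

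Pkm, whose product is the last kinase of the pathway, had 6989, 6108 and 6878 normalized reads in P14 controls and 5167, 5526 and 5556 in P14 dMF1/2. At P16 the controls had 5712, 7238 and 6481 and the dMF1/2 libraries 5121, 5020 and 5123. The groups were apart at both ages, and the P16 dMF1/2 libraries lay close together. The log2 difference was −0.29 (SE 0.10, limma adjusted p = 0.517) at P14 and −0.33 (SE 0.10, adjusted p = 0.116, or 0.0594 with the replicate block) at P16, so neither passed. Gapdh was lower in every dMF1/2 library at P14, with 2971 to 3356 normalized reads against 3372 to 3585, but overlapped at P16. Pgk1, Pgam1 and Eno2 overlapped between genotypes at both ages, with log2 differences between −0.14 and 0.06.

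Summed over the 14 enzymes from sugar entry to pyruvate, P14 controls had 25189 to 29082 normalized reads and P14 dMF1/2 23108 to 24414. The P16 controls had 23890 to 26617 and P16 dMF1/2 21445 to 23225. The sums, carried mostly by Pkm, Aldoa and Gapdh, did not overlap at either age. With each of the 14 enzymes weighted equally, as the median log2 level against the P14 control mean, the P16 groups overlapped, at −0.19 to −0.06 in control and −0.26 to −0.18 in dMF1/2. The P14 groups did not overlap by this median, at −0.09 to 0.10 in control and −0.22 to −0.11 in dMF1/2. Summed over all 34 members listed at both ages, P14 controls, at 46145 to 54027, overlapped with P14 dMF1/2, at 43786 to 47440, whereas P16 controls, at 45933 to 49901, lay above P16 dMF1/2, at 43360 to 45004.

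Pyruvate meets its fork at lactate dehydrogenase, with Ldha and Ldhb encoding its 2 subunits, and at pyruvate dehydrogenase (Pdha1), which the kinases Pdk1 to Pdk4 switch off. Ldha, the subunit that HIF raises, had 4124, 3076 and 3235 normalized reads in P14 controls and 2541, 2556 and 2822 in P16 controls. All P16 controls lay below all P14 controls, a log2 change of −0.39 (SE 0.12, limma adjusted p = 0.0498), but without P14 control replicate 1, which stood apart, it was −0.26 (adjusted p = 0.165). The fall of Ldha was not called in 5 of the 6 fits that left out 1 control library (adjusted p from 0.0564 to 0.165), nor with a pseudocount of 0.1 (0.0501), with no filter on low values (0.0531) or in a fit of the 6 control libraries alone (0.102). The dMF1/2 libraries had 3153, 2598 and 2537 reads at P14 and, overlapping with these, 2475, 2301 and 2546 at P16 (log2 change −0.17, adjusted p = 0.426). The genotype difference of Ldha was −0.32 (SE 0.14, limma adjusted p = 0.696) at P14 and −0.11 (SE 0.08, adjusted p = 0.572) at P16.

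Ldhb, the subunit that favours pyruvate formation, fell in controls as well, from 350.1, 253 and 209 normalized reads at P14 to 197, 187 and 154 at P16. The days did not overlap, with a log2 change of −0.57 (SE 0.17, limma adjusted p = 0.0486), and without P14 control replicate 1, the highest, it was −0.37 (adjusted p = 0.161). The fall of Ldhb was not called in 5 of the 6 fits that left out 1 control library (adjusted p from 0.0757 to 0.161), nor with no filter (0.0530) or in the 6 control libraries alone (0.123). In dMF1/2, Ldhb had 265, 215 and 223 at P14 and 166, 171 and 181 at P16, again without overlap, with a log2 change of −0.44 (SE 0.17, adjusted p = 0.157). Both calls thus lay at the edge of the threshold, and the genotypes did not differ in Ldhb beyond their spread (−0.18 at P14 and −0.04 at P16).

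Pdk2, a broadly expressed pyruvate dehydrogenase kinase, had 818, 746 and 712 normalized reads in P14 dMF1/2 and 575, 519 and 582 in P16 dMF1/2. The fall in dMF1/2 was clear of any overlap, with a log2 change of −0.44 (SE 0.11, limma adjusted p = 0.0376), and it was called in 0 of the 6 fits that left out 1 dMF1/2 library (adjusted p from 0.0758 to 0.105). The controls moved from 771, 761 and 613 at P14 to 622, 549 and 525 at P16, with a log2 change of −0.33 (SE 0.11, adjusted p = 0.0597), and P14 control replicate 3 lay inside the P16 range. The difference between these 2 changes was −0.11 (95% interval −0.44 to 0.23). Pdk1, Pdk3, Pdk4 and Pdha1 passed no test between genotypes or days. Pdk4, the kinase raised by fasting, lay at 110 to 192 normalized reads in P14 controls and 185 to 285 in P16 controls (log2 change 0.58, SE 0.21, adjusted p = 0.0791).

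Pfkfb2, Pfkfb3 and Pfkfb4 make and break fructose-2,6-bisphosphate, the strongest activator of phosphofructokinase. Pfkfb3, the form with the highest kinase activity and a HIF target, had 1774, 796 and 1018 normalized reads in P16 controls and 845, 546 and 765 in P16 dMF1/2. The groups overlapped, since dMF1/2 replicate 1 exceeded control replicate 2, but within each replicate number the dMF1/2 library was the lower. The log2 difference was −0.67 (SE 0.28, limma adjusted p = 0.254), and 0.0230 with the replicate block. At P14 Pfkfb3 had 650.1, 461 and 903 normalized reads in control and 548, 446 and 471 in dMF1/2, with a log2 difference of −0.41 (SE 0.23, adjusted p = 0.832). Pfkfb2 and Pfkfb4 overlapped between the genotypes at P16, and Pfkfb4 lay between 216 and 355 normalized reads over the 12 libraries.

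Egln3, the prolyl hydroxylase PHD3, showed the largest genotype difference among the members tested at P16 and the largest change with age in controls. The P14 controls had 72.7, 94.6 and 95.9 normalized reads of Egln3, and the P14 dMF1/2 libraries 53.7, 80.8 and 66.2. The P16 controls had 306, 155 and 292 and the P16 dMF1/2 libraries 101, 86.2 and 85.2. The P16 controls stood above all other 9 libraries, control replicate 2 by the smallest margin. Egln3 was lower in dMF1/2 at P16 by a log2 difference of −1.39 (SE 0.25, limma adjusted p = 0.0248), or 2.62-fold. At P14 the difference was −0.39 (SE 0.21, limma adjusted p = 0.814), and the groups overlapped.

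Leaving out P16 control replicate 2 strengthened the P16 difference of Egln3 to −1.70 (limma adjusted p = 0.00418). Leaving out any other P16 library gave −1.22 to −1.47 with adjusted p from 0.0532 to 0.101. In controls Egln3 rose from P14 to P16 by 1.46 on the log2 scale (SE 0.25, limma adjusted p = 0.0054), or 2.74-fold, and the rise was called in 6 of 6 fits that left out 1 control library. In dMF1/2 the change was 0.45 (SE 0.25, adjusted p = 0.312), although all 3 P16 libraries lay above all 3 P14 libraries. The difference between the 2 changes was −1.0 on the log2 scale (95% interval −1.78 to −0.23), with an adjusted p of 1.0 by limma.

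The other oxygen-sensing members moved less. Hif1a lay between 1850 and 2814 normalized reads over the 12 libraries, with genotype differences of 0.02 at P14 and −0.04 at P16 (95% interval −0.27 to 0.18). Its log2 change from P14 to P16 was 0.30 (SE 0.11, limma adjusted p = 0.0774) in control and 0.24 (SE 0.11, adjusted p = 0.212) in dMF1/2. Epas1 had 2304, 2694 and 2640 normalized reads in P16 controls and 1839, 2534 and 1432 in P16 dMF1/2, with overlap and a wide error (log2 difference −0.42, SE 0.19, adjusted p = 0.271). Egln1, the main hydroxylase of HIF in most cells, differed by 0.02 at P14 and 0.13 at P16 (95% interval −0.06 to 0.32).

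Promoter sequences are shown for the 2 members past the threshold at P16, as they bear on the core of the HIF response element. Capitals mark the letters ACGTG or GCGTG, or CACGT or CACGC where the core lies on the opposite strand. Each is the 250 bases before a RefSeq transcript start, read 5′ to 3′ on the strand of the gene in GRCm38.p6. Egln3 lies on the minus strand at chr12:54203875-54204124, and Eno1 on the plus strand at chr4:150236947-150237196, the middle of 3 RefSeq starts. By the coordinates deposited with the counts, the genes span chr12:54178981-54203860 and chr4:150236721-150248879. The Egln3 stretch thus lies just upstream of the annotated gene, and the Eno1 stretch within the first part of Eno1, behind an alternative first start.
Egln3: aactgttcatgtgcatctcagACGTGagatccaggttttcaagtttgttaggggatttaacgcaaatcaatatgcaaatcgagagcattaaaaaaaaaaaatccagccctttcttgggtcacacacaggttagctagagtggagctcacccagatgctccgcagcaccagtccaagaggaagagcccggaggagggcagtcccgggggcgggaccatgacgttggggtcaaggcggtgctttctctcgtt
Eno1: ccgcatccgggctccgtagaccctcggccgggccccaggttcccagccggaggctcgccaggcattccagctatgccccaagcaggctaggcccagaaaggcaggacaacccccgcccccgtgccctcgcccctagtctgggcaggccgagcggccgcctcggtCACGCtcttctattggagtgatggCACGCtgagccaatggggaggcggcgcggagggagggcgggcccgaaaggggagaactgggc
Egln3 held 1 match, starting 229 bases before the transcript start, and Eno1 held 2, at 86 and 62 bases before it, both on the opposite strand. In windows of 300 bases, from 250 before to 50 after the start, 29 of the 32 members with a RefSeq window (90.6%) held a match in at least 1 window. The share was 67% of the 10216 genes tested at P16 that had a window, and 46.7% of all 27018 genes. By windows, which some genes have several of, the shares were 39 of 48 for the members (81.2%), 60.7% for genes tested at P16 and 43.8% for all 32841. The cores overlap where CACGT is followed by G. Runs of letters as short as these occur often, and a match is a description of the sequence. No window was given for Ndrg1, Bnip3l and Epas1.

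**Figure D3:**
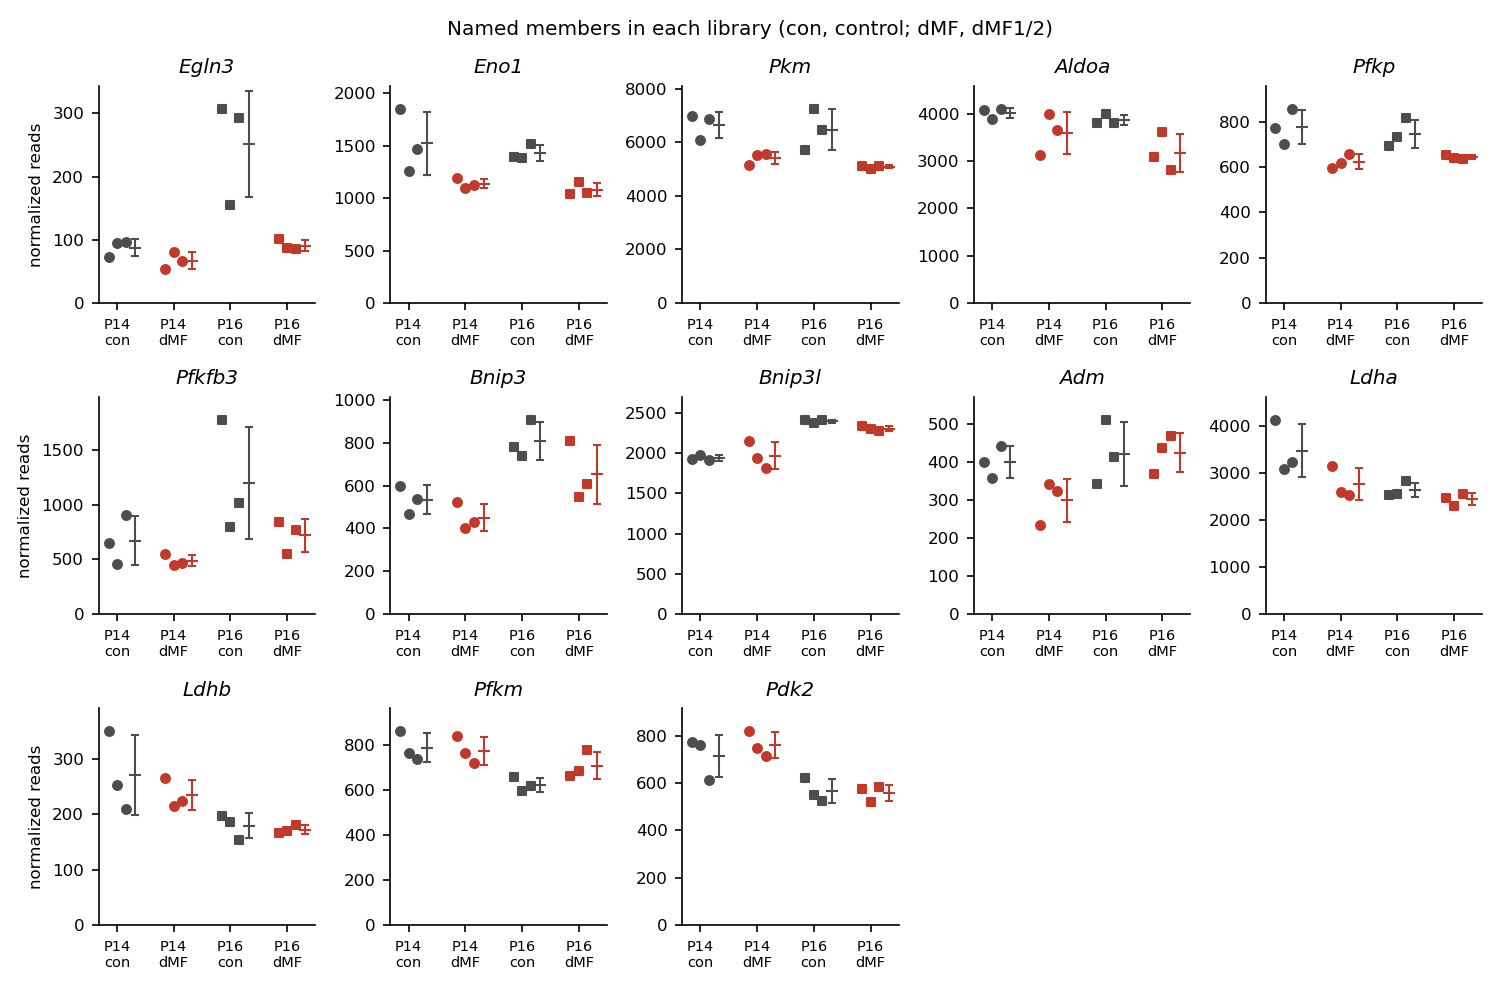
Normalized reads in each library (vertical axes, from 0) for 13 of the members described by library, with control in grey and dMF1/2 in red, circles for P14 and squares for P16, replicates 1 to 3 from left to right; bars beside the points give the mean and SD of 3 libraries. Egln3 in P16 controls, at 155 to 306, exceeded every other library, while the Eno1, Pkm and Pfkp levels of dMF1/2 lay below control at both ages.

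Among the hypoxia-inducible targets, Bnip3 and Bnip3l, which encode receptors that mark mitochondria for autophagy, rose with age. Bnip3 had 600.1, 466 and 538 normalized reads in P14 controls and 780.5, 739 and 905 in P16 controls. The days did not overlap, and the rise was 0.60 on the log2 scale (SE 0.16, limma adjusted p = 0.0299), or 1.51-fold. In dMF1/2, Bnip3 had 523, 402 and 428 at P14 and 809, 545 and 605 at P16, also without overlap, with a change of 0.52 (SE 0.16, limma adjusted p = 0.0762). The rise of Bnip3 in controls was not called without P14 control replicate 2 or 3 or P16 control replicate 1 or 3 (adjusted p from 0.0522 to 0.0971).

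Bnip3l had 1921, 1980 and 1916 normalized reads in P14 controls and 2407, 2370 and 2408 in P16 controls, without overlap between the days. The rise was 0.30 on the log2 scale (SE 0.07, limma adjusted p = 0.0187), and it was not called without P14 control replicate 1 or P16 control replicate 1 or 3 (adjusted p from 0.0564 to 0.0659). In dMF1/2 it was 0.23 (SE 0.07, limma adjusted p = 0.0804), from 2150, 1934 and 1817 to 2334, 2306 and 2275. At P16 every dMF1/2 library lay below every control library for Bnip3l, but by a log2 difference of −0.05 (95% interval −0.21 to 0.11).

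Adm, which encodes the vasodilator peptide adrenomedullin, had 400.1, 358 and 442 normalized reads in P14 controls and 234, 340.3 and 322 in P14 dMF1/2. The groups did not overlap, with a log2 difference of −0.43 (SE 0.17, limma adjusted p = 0.628), and P14 dMF1/2 replicate 1 was the lowest library. Without that library the difference was −0.26 (adjusted p = 0.718). At P16 Adm overlapped, at 342, 509 and 412 in control and 366, 437 and 466 in dMF1/2. Ndrg1, a stress-induced gene, ran from 2622 to 6875 normalized reads over the 12 libraries, and its genotype difference of 0.43 (SE 0.19, adjusted p = 0.268) at P16 was opposite in sign to that of Egln3. Ankrd37, an ankyrin repeat gene that HIF induces, had 4.3 to 23.7 normalized reads in a library.

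**Figure D4:**
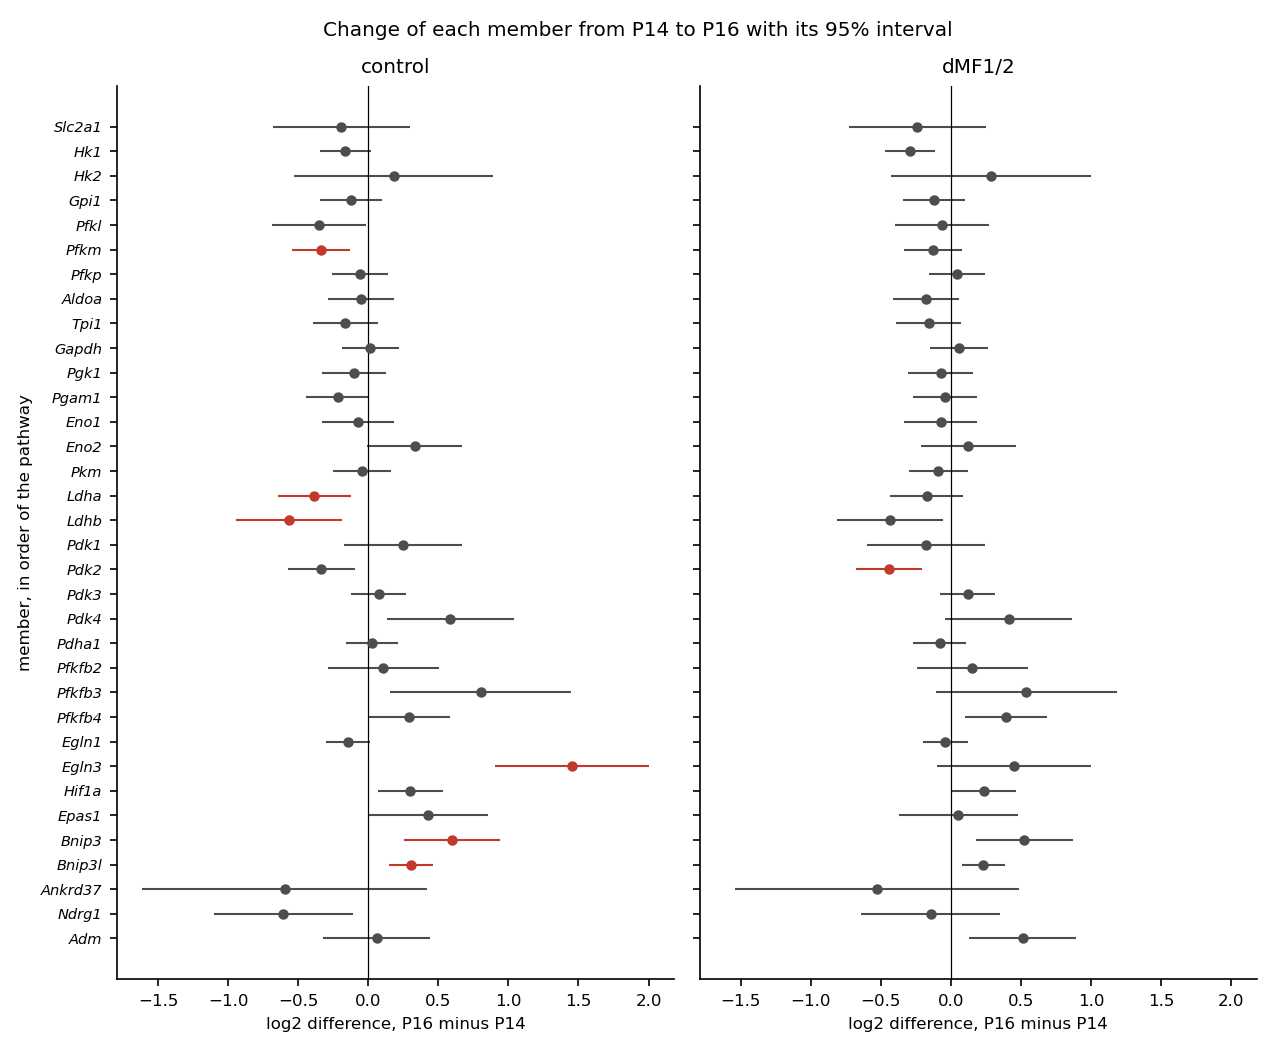
Log2 difference of P16 minus P14 for each member in control (left) and dMF1/2 (right), with 95% intervals from limma as horizontal bars and an adjusted p below 0.05 in red. In control Egln3, Bnip3 and Bnip3l rose and Pfkm, Ldha and Ldhb fell; in dMF1/2 Pdk2 fell.

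Ratios of isoenzymes within a library do not depend on the scaling between libraries, and 8 were compared between genotypes by two-sided exact permutation tests, for which 3 against 3 libraries cannot give p below 0.1. The log2 ratio of Pfkp to Pfkl, the liver type phosphofructokinase, was −0.19, −0.29 and −0.16 in P16 controls and −0.46, −0.37 and −0.43 in P16 dMF1/2. These groups did not overlap, with a difference of −0.21 (exact permutation p = 0.1, the smallest possible, adjusted p = 0.533 over the 8 tests). The ratio of Eno1 to Eno2 was lower in dMF1/2 by a log2 difference of −0.47 at P14 and −0.26 at P16, but the groups overlapped at both ages (exact permutation p = 0.2 for each, adjusted p = 0.533). Within each replicate number the ratio of Eno1 to Eno2 was the lower in dMF1/2, in 3 of 3 pairs at P14 and 3 of 3 at P16, and the permutation test does not use this pairing. The ratios of Ldha to Ldhb and of Hk1 to Hk2 overlapped at both ages, with differences of −0.15 and −0.06 for the first and 0.49 and 0.25 for the second. Leaving out 1 library moved several of these differences. Eno1 to Eno2 at P16 was −0.11 without P16 control replicate 2. Ldha to Ldhb at P14 was −0.02 without P14 control replicate 3, and at P16 it ran from −0.16 without P16 control replicate 1 to 0.09 without P16 control replicate 3. Hk1 to Hk2 ran at P14 from 0.20 without dMF1/2 replicate 3 to 0.77 without dMF1/2 replicate 1, and at P16 from 0.03 without dMF1/2 replicate 2 to 0.61 without control replicate 2.

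**Figure D5:**
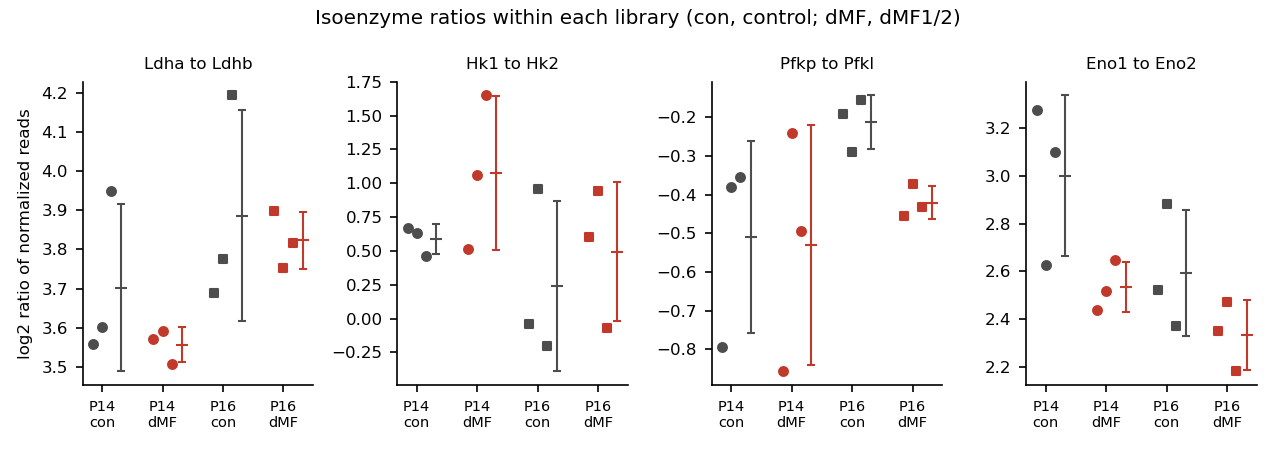
Log2 ratio of 2 isoenzymes in each library (vertical axis), by group along the horizontal axis, with the mean and SD of 3 libraries beside the points. The ratio of Pfkp to Pfkl at P16, from −0.29 to −0.16 in control and −0.46 to −0.37 in dMF1/2, is the one ratio whose groups did not overlap.

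Further genes of the same pathways were counted from 2 longer lists. Of 51 further genes of sugar, glycogen, pentose phosphate and pyruvate metabolism, 43 were listed in the tables, 40 were tested at P16 and 2 passed, both lower in dMF1/2. This share, 2 of 40, was close to the 4.32% of all genes called in either direction, with 2.14% called lower. Pgm1, of the phosphoglucomutase family, had 455, 370.1 and 428 normalized reads in P16 controls and 196, 210.1 and 227 in P16 dMF1/2. The log2 difference was −0.97 (SE 0.12, limma adjusted p = 0.00615). Pgm1 ran from 242 to 287 in P14 controls and from 211 to 252 in P14 dMF1/2, and it rose in controls by 0.63 (adjusted p = 0.00725). Gpd2, the mitochondrial glycerol-3-phosphate dehydrogenase, was lower in dMF1/2 by −0.58 (SE 0.09, limma adjusted p = 0.0157) at P16 and −0.65 (SE 0.15, adjusted p = 0.309, or 0.0133 with the replicate block) at P14.

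Of 51 further hypoxia response genes, all were listed, 50 were tested at P16, and 5 passed, 2 lower and 3 higher in dMF1/2, against 2.14% and 2.18% of all genes. Stc1, which encodes the secreted hormone stanniocalcin 1, had 1064, 361 and 507 normalized reads in P16 controls and 169, 133 and 119 in P16 dMF1/2, a log2 difference of −2.05 (SE 0.35, limma adjusted p = 0.0197). At P14 the difference of Stc1 was −1.03 (SE 0.27, adjusted p = 0.374, or 0.0173 with the replicate block). Rcor2, a corepressor subunit, was lower at P16 by −1.47 (SE 0.23, adjusted p = 0.0152). Higher were Hif3a, the alpha subunit that can restrain HIF, by 0.89 (SE 0.18, adjusted p = 0.0320), Ppp1r3b, a glycogen-targeting phosphatase subunit, by 0.68 (SE 0.12, adjusted p = 0.0190), and Insig2, a regulator of sterol synthesis, by 0.56 (SE 0.11, adjusted p = 0.0273). None of either list passed at P14, where 39 and 49 were tested. From P14 to P16 in controls, 14 of 49 further hypoxia genes passed, 10 higher and 4 lower, against 14.5% of all genes in either direction, 6.26% higher and 8.28% lower, and 3 of 49 passed in dMF1/2, all higher (Wsb1, Mxi1 and Kdm3a), against 1.83% of all genes rising. Stc1 at 1.26 was among those that rose in controls, whereas Vegfa at −0.43 and Plod2 at −1.65 were among those that fell.

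Marker lists were summed in each library beside these results, and at P16 the sums of genes induced by tissue dissociation, of melanocyte markers and of DP markers did not overlap between genotypes. Of 12 genes induced by tissue dissociation, 12 had a negative difference and 1 passed the threshold (Atf3), against 2.14% of all genes called lower, and their summed level was 393686 to 565528 normalized reads in P16 controls against 350114 to 375059 in P16 dMF1/2, and 259194 to 427091 in the P14 libraries. P16 control replicate 2, the control with the lowest Egln3, had the lowest of the 3 control sums. The same library had the highest P16 control sums of DP (59323), endothelial (2122) and keratinocyte markers (1178), among other lists. Of 8 melanocyte markers, all were listed, 5 were tested and 0 passed by limma. An unadjusted limma p below 0.05 was found for 1 of them, against 2559 of 13457 genes. With the replicate block 1 passed (Kit, lower in dMF1/2), against 10.4% of all genes in either direction. The melanocyte sums were 897, 898 and 984 in P16 controls and 789, 817 and 887 in P16 dMF1/2. Of 9 endothelial markers, 8 were negative and 1 passed (Plvap), against 4.32% of all genes in either direction, and none was at 0 in all libraries. The endothelial sums were 1206 to 2122 normalized reads in P16 controls and, overlapping, 1005 to 1333 in P16 dMF1/2. Of 14 DP markers, 5 passed the threshold as higher (Alpl, Bmp6, Fgf10, Prom1 and Ptch1), against 2.18% of all genes, and 1 as lower (Crabp1), against 2.14%, with sums of 40928 to 59323 in P16 controls and 62585 to 86707 in P16 dMF1/2. The part of these lists in the differences of Egln3 and Eno1 was not tested.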

How the data were processed

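RNA was sequenced from YFP-sorted DP cells of 12 mice, in 4 groups of 3 taken from the labels. The authors depleted ribosomal RNA, made stranded libraries, trimmed 61-base single-end reads with Trimmomatic, aligned them to mm10 with TopHat 2, counted them over Ensembl GRCm38.p4 genes with HTSeq and deposited, in 1 table per age, counts divided by DESeq2 size factors, a signal that is normalized within the age. The deposited columns of the authors' own comparisons (mean, log2 fold change, its error, statistic, p and adjusted p) were not used. Division by the smallest step of each library gave whole reads for 100% of values (tolerance 0.01). Levels in the text, and all comparisons between ages, use median-of-ratios scaling over the 12 libraries and the 14986 shared genes, and this changed the relative scaling within an age by at most 0.481% at P14 and 1.02% at P16. The genotypes were compared within an age on the deposited values with limma 3.58.1 (trend, R 4.3.3) on log2(value + 1) keeping genes that averaged 10 or more, and the ages and the interaction in 1 model of 4 groups, with Benjamini-Hochberg adjustment over all genes tested and a threshold of 0.05. Fold changes are on the log2(value + 1) scale. Alternatives used DESeq2 1.42.0 and edgeR 4.0.16 on the recovered reads, other pseudocounts, no filter, TMM scaling, other sets of libraries and a replicate block. The limma steps were run on simulated independent libraries with planted changes of 1 or 2 log2 units. That run does not bear on correlated libraries or on the smaller differences of most members. Same-numbered libraries of the 2 genotypes deviated together within an age (correlations 0.586, 0.389 and 0.304 at P14, and 0.256, 0.293 and 0.311 at P16), so values with the replicate number as a block are given where they change a call. Pairing is from the data, from shared numbers in the labels and from shared letters in the column headers, not from a stated litter. The letters were A, C and E at P14 and B, C and D at P16, in the order of the numbers. Across ages the numbers did not pair the libraries, and only the letter C was common to both ages. Exon lengths and shared windows came from GENCODE M21, a later annotation than that of the counts, and promoters from RefSeq. Gene spans are those deposited with the counts. Members, gene lists and tests were chosen with earlier results of these data known. Values in every library were given for members past the threshold in any comparison (8), for those with the lowest unadjusted p between genotypes until 12 were reached, and for Pfkfb3, which passed with the block; Hk2 and Epas1 were added after their values were seen. The ratio of Aldoa to Aldoc was planned and not computed. The values of 1 gene of the further hypoxia list are not reported here, and it stays in that list's counts.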

Additional observations from a re-analysis of the deposited data

How the results depend on the processing

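Of the alternative fits of the 9 tests of members past the threshold, 81 kept the direction and the call, 52 kept the direction and lost the call, and 0 reversed. The 58 alternative fits of the other 4 tests (Pfkp, Adm, Aldoa and Pkm) kept the direction, and none was called. Members called at P16 numbered 1 (Egln3) in a joint fit of 12 libraries and 0 to 1 when 1 library was left out. In control P14 to P16 they numbered 2 when the 6 compared libraries were fitted alone (Bnip3l was then at adjusted p = 0.0529 and Pfkm at 0.0753), 3 without both libraries numbered 1 at P14 (an alternative chosen after seeing the data, as was edgeR), and 1 to 7 when 1 library was left out. In dMF1/2 P14 to P16 they numbered 4 by DESeq2, which called 1311 of 13239 genes, and 3 with the replicate block, which called 944 of 13415. They numbered 0 in the 6 compared libraries alone (Pdk2 at 0.0596), 3 without both libraries numbered 1 at P14, and 0 to 2 when 1 library was left out. Shares of all genes in the joint, compared-library and left-out fits are not given here. Those counts show only how the calls vary with the fit. Fits with fewer libraries test fewer samples; otherwise the cause was not tested. At P14 and for the interaction the count was 0 in every fit listed, leaving out each library included. None of the 8 isoenzyme differences was past a threshold, and leaving out 1 library took Ldha to Ldhb at P16 from −0.16 to 0.09 and Pfkp to Pfkl at P14 from −0.17 to 0.14, so neither has a settled sign.

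Across ages the replicate numbers do not mark shared samples (correlations −0.0545, −0.0621 and −0.130 in control, 0.0292, 0.208 and −0.162 in dMF1/2); with that block 8 members were called in control (16.7% of all genes), Pfkfb3 and Pdk2 being added, and Hk1 and Bnip3 were added in dMF1/2 (7.04%). With the block within an age, 224 genes were called at P14 and 1403 at P16, against 7 and 582 without it, and no member's call changed but that of Pfkfb3. DESeq2 called 205 genes at P14, 1114 at P16 and 1311 in dMF1/2 P14 to P16, the last against 778 by limma. Depth limits Aldoc, with 1 to 6 reads a library, and Ankrd37, which fell under the filter at P16.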
